A study of Homo sapiens with 9 samples.

Results

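The MCM helicase and origin licensing genes were taken as the 10 rows of the gene count table named MCM2, MCM3, MCM4, MCM5, MCM6, MCM7, MCM10, CDC6, CDT1 and CDC45, of 58735 genes in all. All 10 had enough counts to be tested, among 15555 genes that did. RNA was sequenced from VCaP, an established line of human prostate cancer cells, transfected with the control siRNA (siCtrl, genotype label WT) or with siCDO1A or siCDO1C, a pair of siRNAs against CDO1 (genotype label CDO1 knockdown). Each group had 3 libraries, labelled as biological replicates 1 to 3, and all 9 came from cells kept in medium with 2 nM DHT, the androgen dihydrotestosterone. The series compared control cells with cells in which CDO1 was knocked down. CDO1 is cysteine dioxygenase, which oxidizes cysteine. The comparisons therefore concern 1 cell line under androgen, with transient knockdown by siRNA rather than deletion of the gene.

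Before a chromosome is copied, its origins are licensed. The origin recognition complex, CDC6 and CDT1 load the MCM2 to MCM7 ring onto DNA in G1 phase, where it sits inactive. In S phase, under the kinases CDC7 and CDK2, CDC45 and the GINS complex join the loaded ring to form the active helicase. MCM10 is needed for that helicase to start unwinding. Geminin and the destruction of CDT1 then keep an origin from being licensed again in the same cycle. Most of these genes are transcribed under E2F control as cells pass from G1 to S phase, and MCM proteins serve in pathology as markers of cells that are in the cycle.

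The libraries held between 12061295 and 16073698 counts. CDO1 stood at 14.2, 14.1 and 13.6 CPM (counts per library size, scaled by edgeR's TMM factors) in siCtrl replicates 1 to 3, at 3.28, 2.05 and 2.18 CPM in siCDO1A and at 1.09, 2.81 and 1.15 CPM in siCDO1C. That was 82.1% ± 4.83 below the siCtrl mean for siCDO1A and 87.9% ± 6.98 below it for siCDO1C (SD, n = 3), with an exact two-sided permutation p of 0.1 for each, the smallest that 3 against 3 allows. In the first 2 principal components of 11332 genes, siCDO1C replicate 2 stood apart from the other siCDO1C libraries (second component -12.9, against 9.89 and 12.7), so that siCDO1C results are given with and without it. Of the markers of luminal prostate epithelium, KLK3, TMPRSS2, ERG, FOXA1, HOXB13, KRT8, KRT18 and EPCAM, all 8 were tested, and they summed to 2654 to 2742 CPM in siCtrl, 2580 to 2652 in siCDO1A and 2648 to 2774 in siCDO1C. Basal markers summed to at most 3.42 CPM, endothelial ones to at most 2.67 with CDH5 at 0, leukocyte ones to at most 4.44 and fibroblast ones to at most 23.1. Neuroendocrine markers summed to 141 to 153 CPM in siCtrl, 157 to 182 in siCDO1A and 159 to 174 in siCDO1C. The neuroendocrine sums thus lay higher in both knockdown groups, as the members' levels did, while the luminal sums lay lower with siCDO1A and overlapped siCtrl with siCDO1C. Within that list KLK3, the gene of prostate-specific antigen, fell by 0.38 on the log2 scale with siCDO1A (edgeR, adjusted p = 0.00741) and by 0.43 with siCDO1C (adjusted p = 0.0243), and was called in 5 and 2 of the 6 fits that left out a library. With siCDO1A, ERG rose by 0.24 (edgeR, adjusted p = 0.00824) and KRT8 fell by 0.19 (adjusted p = 0.0347), called in 6 and 3 of these fits. KLK3 was the only one of the 8 called with siCDO1C when all libraries were used. Without siCDO1C replicate 2, KLK3, KRT18 and EPCAM were lower, 3 of the 8, against 6.52% of all genes. KRT18 then had a log2 fold change of -0.22 (edgeR, adjusted p = 0.00558) and EPCAM of -0.18 (adjusted p = 0.0126). The part of these markers in the members' results was not tested.

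In the GRCh38 coordinates of the table, MCM2 lay on chr3:127598223-127622436, MCM3 on chr6:52264009-52284881, MCM5 on chr22:35400063-35425430, MCM6 on chr2:135839626-135876426 and MCM7 on chr7:100092728-100101940. MCM10 lay on chr10:13161554-13211104, CDC6 on chr17:40287633-40304657, CDT1 on chr16:88803213-88809258 and CDC45 on chr22:19479459-19520612. All 10 were annotated as protein-coding. MCM5 and CDC45 shared a chromosome. MCM7 overlapped AP4M1 on the opposite strand by 392 bases, and AP4M1 had 6.13% of the mean count of MCM7. The microRNA genes MIR25, MIR106B and MIR93 lie inside MCM7 on the same strand and had between 0 and 23 counts. MCM2 overlapped TPRA1 on the opposite strand by 45 bases, and TPRA1 had 31.7% of the mean count of MCM2. The antisense gene AC023593.1 overlapped MCM2 by 2331 bases and had 2 to 8 counts. The libraries mark the strand, but the strand setting of the counting was not given in the sources used here, so reads in these overlaps could belong to either gene.

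RefSeq promoter windows of 300 bases, from 250 before the start of transcription to 50 after it in GRCh38.p14, were matched for 8 of the 10 members. They were searched on both strands for the E2F-type letters TTTCCCGC, TTTGGCGC, TTTCGCGC and TTTGCCGC. These members had 12 windows, since MCM7 and CDC45 had several each, some of them overlapping. Such letters stood in a window of MCM2, MCM3, MCM6, MCM7, CDC6 and CDT1. By window that was 6 of 12, while 3.31% of 35116 RefSeq windows held any of them. The other windows of MCM7 held none. The windows that held such letters are printed for those 6 genes, with the E2F-type letters in capitals and each sequence in the gene's own direction. The windows follow RefSeq starts, which differ from the gene starts of the count table. They are chr3:127598161-127598460 (plus strand) for MCM2, chr6:52284693-52284992 (minus) for MCM3, chr2:135876394-135876693 (minus) for MCM6, chr7:100101348-100101647 (minus) for MCM7, chr17:40287629-40287928 (plus) for CDC6 and chr16:88803539-88803838 (plus) for CDT1.
MCM2: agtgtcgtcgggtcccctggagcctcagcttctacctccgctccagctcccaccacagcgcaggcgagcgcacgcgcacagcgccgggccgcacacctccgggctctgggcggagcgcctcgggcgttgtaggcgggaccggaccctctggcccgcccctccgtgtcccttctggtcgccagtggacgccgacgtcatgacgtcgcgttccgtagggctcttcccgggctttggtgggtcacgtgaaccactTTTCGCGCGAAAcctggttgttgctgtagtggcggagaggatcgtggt
MCM3: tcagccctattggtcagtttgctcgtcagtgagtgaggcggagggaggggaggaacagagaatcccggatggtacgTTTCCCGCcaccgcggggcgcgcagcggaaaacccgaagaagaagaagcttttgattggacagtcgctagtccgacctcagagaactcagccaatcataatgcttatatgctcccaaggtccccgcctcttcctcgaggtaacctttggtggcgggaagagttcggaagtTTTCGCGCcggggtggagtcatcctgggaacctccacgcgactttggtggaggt
MCM6: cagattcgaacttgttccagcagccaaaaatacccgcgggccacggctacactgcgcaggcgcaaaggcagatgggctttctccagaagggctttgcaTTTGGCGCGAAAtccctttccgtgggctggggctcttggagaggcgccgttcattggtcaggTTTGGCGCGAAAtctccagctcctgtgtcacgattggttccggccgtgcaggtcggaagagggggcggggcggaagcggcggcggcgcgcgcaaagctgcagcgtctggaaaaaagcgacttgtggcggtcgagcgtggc
MCM7: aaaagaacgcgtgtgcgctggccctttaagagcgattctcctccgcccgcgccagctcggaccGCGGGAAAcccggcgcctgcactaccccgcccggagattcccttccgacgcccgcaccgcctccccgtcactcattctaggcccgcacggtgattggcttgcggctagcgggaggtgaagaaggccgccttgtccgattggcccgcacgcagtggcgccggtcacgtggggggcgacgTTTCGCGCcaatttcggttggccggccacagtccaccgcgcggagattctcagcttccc
CDC6: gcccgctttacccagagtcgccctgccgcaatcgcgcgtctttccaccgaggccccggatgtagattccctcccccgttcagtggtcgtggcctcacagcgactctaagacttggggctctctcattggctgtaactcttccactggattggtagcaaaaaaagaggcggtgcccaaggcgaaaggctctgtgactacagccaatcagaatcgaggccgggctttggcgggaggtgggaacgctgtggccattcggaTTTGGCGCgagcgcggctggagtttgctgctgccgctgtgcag
CDT1: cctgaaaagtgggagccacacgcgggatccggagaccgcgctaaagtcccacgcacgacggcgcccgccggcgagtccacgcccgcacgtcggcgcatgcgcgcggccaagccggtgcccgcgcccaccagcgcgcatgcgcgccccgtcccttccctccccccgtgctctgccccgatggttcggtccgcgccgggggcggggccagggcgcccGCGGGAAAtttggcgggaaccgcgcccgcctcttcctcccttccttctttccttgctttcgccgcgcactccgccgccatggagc

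In MCM2 the letters formed a palindrome of overlapping TTTCGCGC matches that began 2 and 6 bases into the transcript. MCM3 and MCM7 shared an arrangement, with TTTCGCGC just before the start (4 and 9 bases before it) and TTTCCCGC farther off (174 and 187 bases before it, on opposite strands). MCM6 held the same overlapping pair of TTTGGCGC and TTTCGCGC at 2 places, beginning 152 and 90 bases before the start. CDC6 held a single TTTGGCGC 7 bases into the transcript, and CDT1 a single TTTCCCGC 35 bases before its start. The windows of MCM10 and CDC45 held none of these letters. Related letters were not searched for, so a window without a match may still hold an E2F-type site. TTTGGCGG, for example, stands in windows of MCM10 and CDC45, and in lower case in those printed for CDC6 and CDT1. The CCAAT letters that NF-Y binds stood in windows of MCM3, MCM6, MCM7, MCM10, CDC6 and CDC45. That was 9 of the members' 12 windows, against 34.6% of all windows. The GC-box letters GGGCGG stood in windows of MCM2, MCM6, MCM7, MCM10, CDT1 and CDC45, 10 of the 12, against 45%. The letters TTTGAA, part of the CHR element of cell cycle genes, stood in none of the members' windows and in 15.2% of all windows. These are matches of letters in RefSeq sequence, and no binding was measured.

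Per length, MCM7 was the most abundant member and MCM10 the least. With CPM divided by the gene length given in the table, in kilobases, the siCtrl means ran from MCM7 (70 ± 3.37, SD, n = 3) over MCM4, MCM3, MCM6, MCM2, CDC45, CDC6, MCM5 and CDT1 down to MCM10 (5.08). The levels of MCM6 (26.3) and MCM2 (26.1) overlapped between libraries, as did those of CDC6 (12.5) and MCM5 (12.4), while every other pair of neighbours in this order was separate in all 3 siCtrl libraries. In siCDO1A the order changed only among such close neighbours, with MCM2 (32.4) and MCM6 (31.9) overlapping and MCM5 (15.9) now above CDC6 (14.1). In siCDO1C, MCM3 (34.9), MCM2 (32.3) and MCM6 (31.5) overlapped. The ring carries its subunits in equal number, yet the messages of the 6 subunits were unequal: MCM7 made up 33.4% of their summed per-length level in siCtrl and MCM5 5.93%. These shares depend on the annotated lengths, which ran from 2846 bases for CDC45 to 7338 for MCM5.

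**Figure D1:**
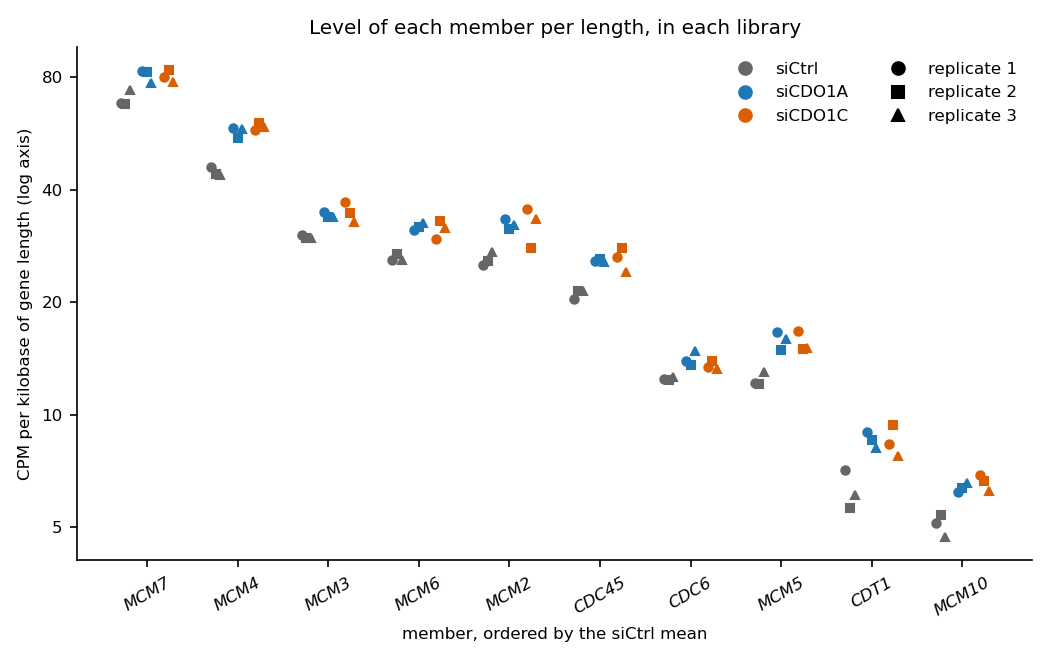
Level of each member in CPM per kilobase of annotated gene length, on a log axis, in each of the 9 libraries, with colour for the siRNA and marker shape for the replicate. The CPM here were taken without the TMM factors. MCM7 stood highest and MCM10 lowest in every group, and the siCDO1A and siCDO1C libraries lay above the siCtrl libraries for every member.

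For all 10 members, the 6 libraries with an siRNA against CDO1 lay above all 3 siCtrl libraries in CPM. Such a separation held for 7.39% of all genes tested. It held for 15.2% of them with siCDO1A alone and for 12.1% with siCDO1C alone.

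Among the ring subunits, MCM4 (chr8:47960185-47978160) moved most clearly. Its level was 318, 308 and 304 CPM in siCtrl replicates 1 to 3, 412, 387 and 409 in siCDO1A and 402, 422 and 408 in siCDO1C. The lowest knockdown library thus lay 68.6 CPM above the highest siCtrl one. MCM2, which binds histones as well as the ring, had 123, 126 and 133 CPM in siCtrl, 165, 156 and 159 in siCDO1A and 174, 138 and 162 in siCDO1C. Its siCDO1C replicate 2 was close to the highest siCtrl library, and its siCDO1C libraries had the widest relative spread of the 10 members (coefficient of variation 11.5%). MCM5, which with MCM2 forms the gate through which DNA enters the ring, had 88.4, 88.7 and 95.3 CPM in siCtrl, 123, 111 and 118 in siCDO1A and 122, 111 and 110 in siCDO1C. Both knockdown groups covered nearly the same range.

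The other 3 subunits were separate between siCtrl and knockdown libraries as well. MCM6 had 106, 111 and 107 CPM in siCtrl, 130, 132 and 135 in siCDO1A and 121, 137 and 130 in siCDO1C. MCM3 had 109, 108 and 108 CPM in siCtrl, 128, 125 and 124 in siCDO1A and 134, 128 and 119 in siCDO1C. In MCM3 the siCtrl libraries were nearly equal, with a coefficient of variation of 0.535%. MCM7 had 297, 297 and 323 CPM in siCtrl, 367, 366 and 341 in siCDO1A and 350, 368 and 338 in siCDO1C. Its siCtrl replicate 3 came close to the lowest knockdown libraries, which were replicate 3 in both groups.

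The loading factors differed from each other. CDT1, which brings the ring to the origin and is destroyed in S phase, had 23.5, 18.8 and 20.3 CPM in siCtrl, 30.1, 28.8 and 27.4 in siCDO1A and 27.7, 31.6 and 25.7 in siCDO1C. Its siCtrl libraries varied most among the members (11.6%), and the gap to the lowest siCDO1C library was 2.2 CPM. CDC6, the ATPase that recruits CDT1 with the ring to the origin recognition complex, had 68.6, 68.9 and 69.7 CPM in siCtrl, 77.9, 76.3 and 82.9 in siCDO1A and 73.9, 77.5 and 73.3 in siCDO1C. It had the smallest relative difference in the means of the 10 members, although no library of siCtrl reached one of the knockdown groups.

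The factors that turn the loaded ring into a working helicase lay between these. CDC45, part of the active helicase, had 57.6, 60.7 and 60.6 CPM in siCtrl, 73.8, 74.9 and 73.3 in siCDO1A and 74.7, 79.8 and 68.1 in siCDO1C. The siCDO1A libraries of CDC45 were the tightest of the members in that group (coefficient of variation 1.14%). MCM10 had 27.7, 29.3 and 25.7 CPM in siCtrl, 34.1, 35.1 and 36 in siCDO1A and 37.4, 36.5 and 33.9 in siCDO1C. Its groups were separate in every library, by 4.52 CPM at the closest with siCDO1C.

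**Figure D2:**
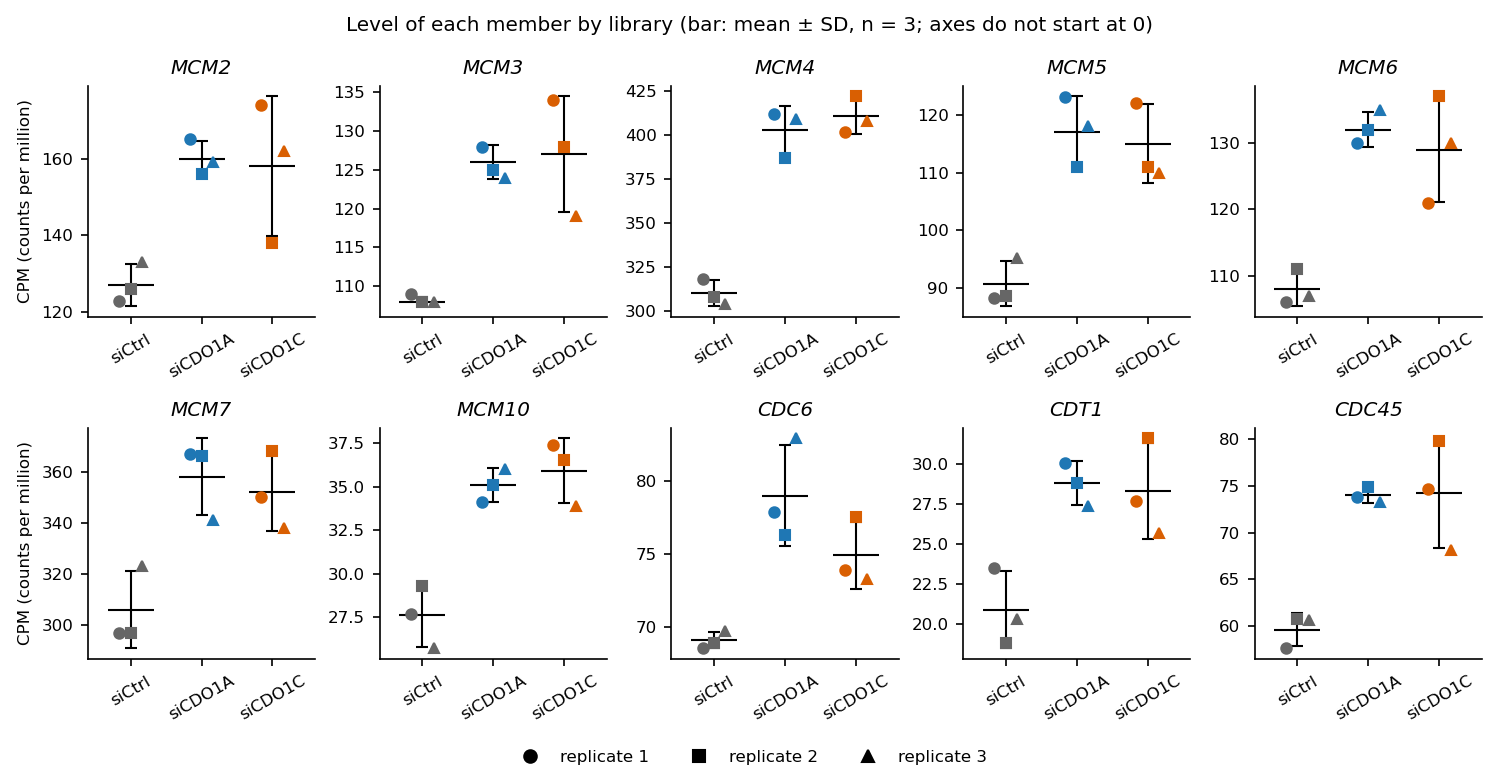
CPM of each of the 10 members in the 9 libraries, 1 panel per gene, with marker shape for the replicate and bars for the mean ± SD (n = 3). The vertical axes do not start at 0. In every panel the 6 siCDO1A and siCDO1C libraries lie above the 3 siCtrl libraries, and the narrowest gap is 2.2 CPM, in CDT1 with siCDO1C.

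With siCDO1A against siCtrl, all 10 members rose. CDT1 rose most, from 20.9 ± 2.41 to 28.8 ± 1.38 CPM (SD, n = 3), 1.38 times, and CDC6 least, from 69.1 ± 0.557 to 79 ± 3.47 CPM, 1.14 times. The 6 ring subunits rose between 1.16 times (MCM3) and 1.3 times (MCM4). Among all genes tested, 7.37% were higher and 7.48% lower by the same test, edgeR's quasi-likelihood test with Benjamini-Hochberg adjusted p of at most 0.05. The median log2 fold change of the members was 0.32, and that of all genes 0.01. In bulk RNA, a larger share of cells in the phase that transcribes a gene and more of its RNA per cell cannot be told apart.

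The ring subunits MCM4, MCM5 and MCM2 had the lowest adjusted p of the 10. MCM4 rose by 0.38 ± 0.0507 on the log2 scale (SE; edgeR, adjusted p = 3.0e-05). MCM5 rose by 0.37 ± 0.0631 (edgeR, adjusted p = 4.5e-04) and MCM2 by 0.33 ± 0.0576 (edgeR, adjusted p = 5.8e-04). Their mean CPM lay 29.8%, 29.2% and 25.5% above the siCtrl mean. MCM6 rose by 0.30 ± 0.0574 (edgeR, adjusted p = 0.00134), MCM7 by 0.23 ± 0.0541 (edgeR, adjusted p = 0.00667) and MCM3 by 0.21 ± 0.057 (edgeR, adjusted p = 0.0147). CDT1, the most raised member, had a wider error, 0.46 ± 0.0966 (edgeR, adjusted p = 0.00253). CDC45 rose by 0.31 ± 0.0655 (edgeR, adjusted p = 0.00274), MCM10 by 0.35 ± 0.0846 (edgeR, adjusted p = 0.00754) and CDC6 by 0.19 ± 0.0649 (edgeR, adjusted p = 0.0473).

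The calls of MCM3 and CDC6 were lost most often in other fits. With the batch number of the labels, which equals the replicate number, as a block in the same test, 8 of 10 members were higher, against 4.19% of all genes. MCM3 (edgeR with block, adjusted p = 0.0902) and CDC6 (adjusted p = 0.161) were the members lost, and MCM7 was near the threshold (adjusted p = 0.0487). DESeq2 called 9 members higher, against 7.35% of the genes to which it gave an adjusted p, and left out CDC6 (adjusted p = 0.0658). When any of the 6 libraries was left out, CDC6 was not called (edgeR, adjusted p 0.0731 to 0.149). MCM3 was not called without siCtrl replicate 1 (edgeR, adjusted p = 0.0577), siCtrl replicate 2 (0.073) or siCDO1A replicate 1 (0.0677), and MCM7 not without siCtrl replicate 1 (0.0562) or 2 (0.0573). The other 7 members were called in each of these 6 fits.

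With siCDO1C against siCtrl, the members' levels were higher by nearly the same amounts, but fewer passed the test. MCM4, MCM5, MCM10, CDT1 and CDC45 rose, 5 of 10, against 2.27% of all genes higher and 2.5% lower. All 5 had also risen with siCDO1A, and 1.9% of all genes were higher with both siRNAs. Both comparisons share the siCtrl libraries. MCM4 rose from 310 ± 7.43 to 411 ± 10.5 CPM (SD, n = 3), 1.32 times, and CDT1 to 28.3 ± 3 CPM, 1.36 times. The members' median log2 fold change was 0.31, against -0.00 for all genes.

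MCM4 again had the smallest error, with a log2 fold change of 0.40 ± 0.067 (edgeR, adjusted p = 0.00298). MCM5 rose by 0.33 ± 0.076 (edgeR, adjusted p = 0.0224), MCM10 by 0.38 ± 0.093 (edgeR, adjusted p = 0.0304), CDT1 by 0.44 ± 0.113 (edgeR, adjusted p = 0.0396) and CDC45 by 0.31 ± 0.0815 (edgeR, adjusted p = 0.0426). The 5 members that missed the threshold had positive values as well. MCM2 had a log2 fold change of 0.30 ± 0.0866 (edgeR, adjusted p = 0.057), MCM6 of 0.26 ± 0.0729 (adjusted p = 0.0586), MCM3 of 0.22 ± 0.0725 (adjusted p = 0.101) and MCM7 of 0.20 ± 0.0707 (adjusted p = 0.137). For these 4 the 95% confidence interval of the log2 fold change lay above 0, from 0.05 to 0.49 over the 4 genes. The interval of CDC6 spanned 0, at 0.11 with bounds of -0.05 and 0.27 (edgeR, adjusted p = 0.469).

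**Figure D3:**
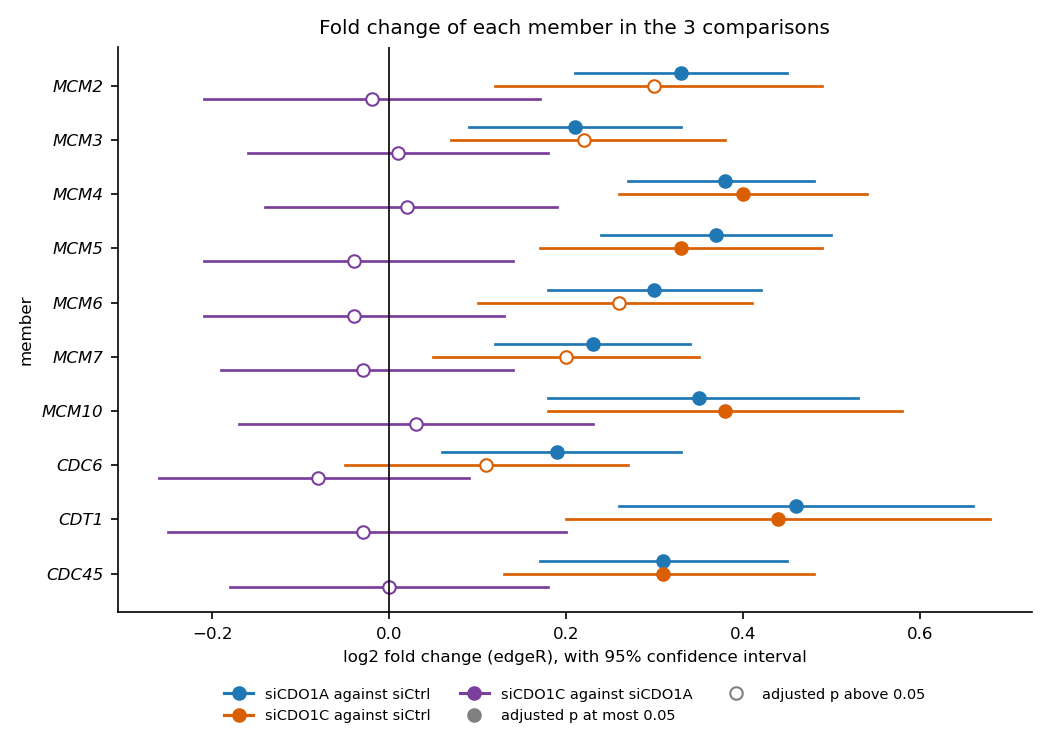
log2 fold change of each member with its 95% confidence interval (edgeR, 3 libraries per group) in the 3 comparisons, with filled points at an adjusted p of at most 0.05. The intervals against siCtrl lie above 0 except that of CDC6 with siCDO1C, and all 10 intervals of siCDO1C against siCDO1A span 0.

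How many members passed with siCDO1C depended on single libraries. Without siCDO1C replicate 2, the library that stood apart, 9 members were higher, against 6.78% of all genes, and CDC6 alone was not called (edgeR, adjusted p = 0.434). MCM2, lowest in that library, then had a log2 fold change of 0.40 (edgeR, adjusted p = 1.0e-05). Without siCDO1C replicate 1 a single member, MCM4, was called, against 1.25% of all genes, and without siCDO1C replicate 3 the count was 5, against 1.62%. Without siCtrl replicate 1 it was 2 (MCM4 and CDT1), against 0.951% of all genes. Without siCtrl replicate 2 or 3 it was MCM4 alone, against 0.881% and 0.804%. MCM4 was thus called in all 6 of these fits (edgeR, adjusted p 9.0e-07 to 0.0386). With the batch number as a block, 4 members were called, against 1.92% of all genes, and CDC45 was lost (edgeR with block, adjusted p = 0.0716). DESeq2 called 7, adding MCM2 (adjusted p = 0.035) and MCM6 (adjusted p = 0.0414), against 2.65% of the genes to which it gave an adjusted p. With trends of GC content and gene length removed, 8 were called, all but MCM7 and CDC6, against 3.99% of all genes.

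**Figure D4:**
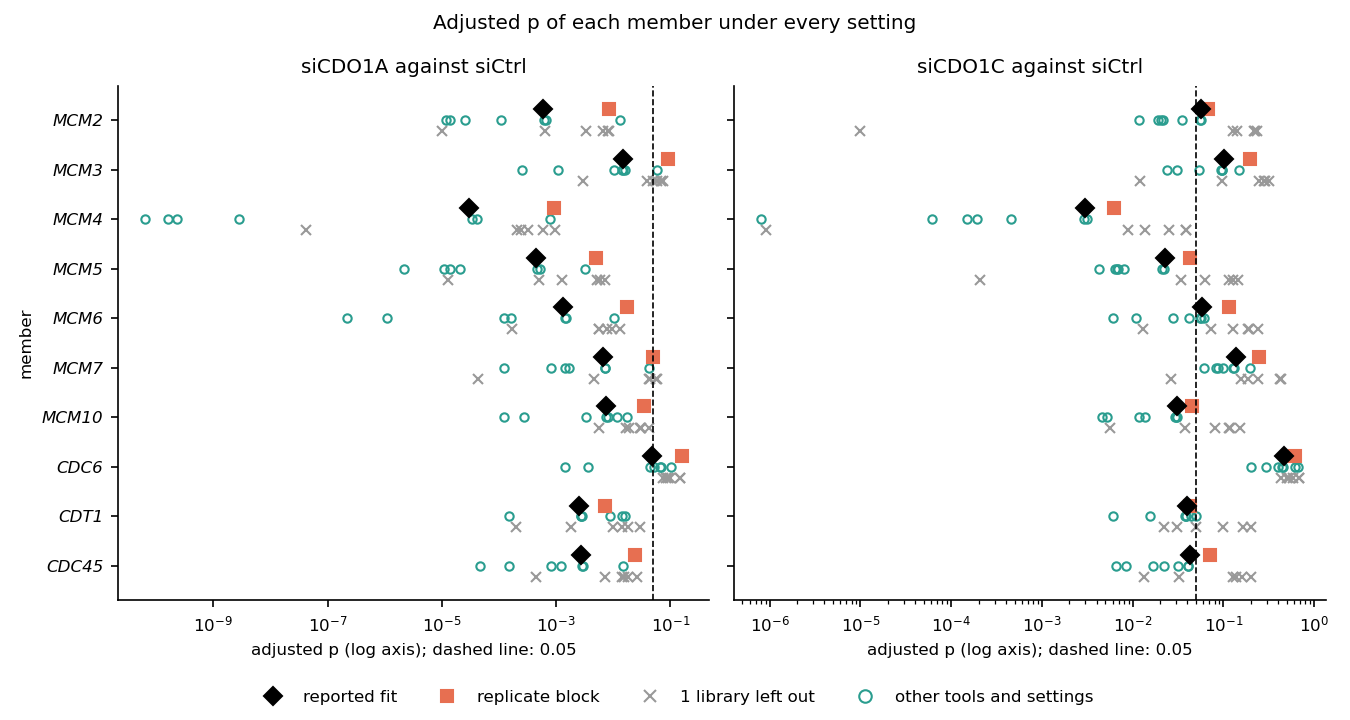
Adjusted p of each member on a log axis in the comparisons of siCDO1A (left) and siCDO1C (right) with siCtrl, for the reported edgeR fit, the fit with the replicate block, the fits with 1 library left out and the other tools and settings. MCM4 lies left of the 0.05 line in every fit of both comparisons, and CDC6 with siCDO1C lies right of it in every fit.

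No difference between the siRNAs was detectable in any member. The log2 fold changes of siCDO1C against siCDO1A ran from -0.08 (CDC6) to 0.03 (MCM10), with a median of -0.02. By edgeR, 0 of 10 members were called, 0 at an unadjusted p under 0.05 and 0 by DESeq2, while 0.444% of all genes differed in either direction by edgeR. The widest bound of the 95% confidence intervals was 0.26 in size on the log2 scale. That bound, -0.26, belonged to CDC6, and the interval of MCM4 ran from -0.14 to 0.19.

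Summed over MCM2 to MCM7, the level was 1041, 1039 and 1071 CPM in siCtrl, 1325, 1278 and 1285 CPM in siCDO1A and 1303, 1304 and 1268 CPM in siCDO1C. The sums lay 23.4% and 23% above the siCtrl mean, with SDs of 18.1, 25.5 and 20.6 CPM in the 3 groups. The sum of siCDO1C replicate 2 was level with that of replicate 1, although MCM2 was at its lowest there. The make-up of the per-length sum shifted little: MCM7 went from 33.4% to 32.1% and 31.7%, MCM4 from 21.3% to 22.7% and 23.3%, and MCM2 from 12.5% to 12.8% and 12.7%. MCM5, the least abundant, kept 6.28% and 6.16%. Over all 10 members the sum rose from 1227 ± 17.3 to 1513 ± 25.1 and 1505 ± 32 CPM (SD, n = 3).

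Smaller parts of the other lists around the members passed the test, and these lists were not tested against the members. For all these lists, the shares of all genes with siCDO1A were 7.37% higher and 7.48% lower. The shares with siCDO1C were 2.27% and 2.5%. Of the 6 subunits of the origin recognition complex, ORC1 and ORC6 rose with siCDO1A and none passed with siCDO1C (1 at an unadjusted p under 0.05, 0 by DESeq2). The list's median log2 fold change was 0.08 with each. ORC6, a subunit needed for loading, had 0.38 (edgeR, adjusted p = 0.0065) and 0.35 (adjusted p = 0.0617). ORC1, the subunit whose level oscillates in the cycle, had 0.35 (edgeR, adjusted p = 0.0275) and 0.21 (adjusted p = 0.366). Of 9 tested genes that restrain licensing or turn CDT1 over, DTL and PCNA rose with siCDO1A and DTL with siCDO1C (medians 0.09 and 0.07). DTL, the receptor that marks CDT1 for destruction on PCNA, had 26.4, 25.9 and 25.3 CPM in siCtrl, 32.8, 29.8 and 33.1 in siCDO1A and 31.7, 33.3 and 35.7 in siCDO1C. Its log2 fold change was 0.30 (edgeR, adjusted p = 0.02) and 0.37 (adjusted p = 0.0322), and both calls were lost with the block (0.0699 and 0.0568).

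Of 13 genes for helicase activation and its partners, RECQL4 and DONSON rose with siCDO1A and DONSON with siCDO1C (medians 0.16 and 0.21). DONSON, which helps to bring GINS to the loaded ring, had 26.1, 27.9 and 28.2 CPM in siCtrl, 33.6, 42 and 36.9 in siCDO1A and 34.6, 42.5 and 36.7 in siCDO1C. It had log2 fold changes of 0.45 (edgeR, adjusted p = 0.00195) and 0.46 (adjusted p = 0.0134), as large as those of CDT1. Of 5 relatives or partners of MCM proteins outside the ring (MCM8, MCM9, MCM3AP, MCMDC2 and HROB, listed as C17orf53), none passed with either siRNA by edgeR or DESeq2, 1 was under 0.05 unadjusted with siCDO1A and 0 with siCDO1C, and the medians were 0.02 and -0.02. The 8 firing kinases and their cyclins had 1 lower call with siCDO1A, CDK2, and 1 higher with siCDO1C, CDC7 (medians 0.07 and 0.15).

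The regulators of the cycle were mixed in direction. Of 19 E2F, RB and DREAM genes, E2F1, E2F2, E2F3, E2F4 and MYBL2 rose and RB1 and RBL2 fell with siCDO1A, and E2F1 and E2F2 rose with siCDO1C (medians 0.06 and 0.02). With the block 1 of these was higher and 1 lower with siCDO1A, and 2 higher with siCDO1C. E2F1, an activator of S-phase genes, had 85.5, 86.7 and 98.8 CPM in siCtrl, 112, 109 and 111 in siCDO1A and 117, 122 and 105 in siCDO1C (edgeR, log2 fold change 0.29, adjusted p = 0.00454, and 0.33, adjusted p = 0.0326). E2F2, an activator as well, had log2 fold changes of 0.33 (edgeR, adjusted p = 0.0132; 0.0522 with the block) and 0.44 (adjusted p = 0.00963). RBL2, which holds E2F targets silent in resting cells, fell by 0.39 on the log2 scale with siCDO1A (edgeR, adjusted p = 6.5e-04) and had -0.31 with siCDO1C (adjusted p = 0.0549).

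Markers of the later cycle did not move as the members did. Of 18 genes of G2 and M phase, KIF11 rose and CCNB1 and AURKA fell with siCDO1A, and KIF11 rose and AURKA and TOP2A fell with siCDO1C (medians -0.07 and -0.06). KIF11, a spindle motor, had log2 fold changes of 0.29 (edgeR, adjusted p = 0.00566) and 0.36 (adjusted p = 0.00932). AURKA, a mitotic kinase, had 134, 134 and 145 CPM in siCtrl, 120, 120 and 119 in siCDO1A and 108, 112 and 111 in siCDO1C. It fell by 0.20 on the log2 scale with siCDO1A (edgeR, adjusted p = 0.024; 0.118 with the block) and by 0.33 with siCDO1C (adjusted p = 0.0137). Of 10 tested genes for CDK inhibitors, arrest and D-type cyclins, CDKN1A and CDKN1B fell with siCDO1A, as did CCND1, a cyclin and no inhibitor. With the block these calls became 0. None of the 10 passed with siCDO1C by edgeR (4 at an unadjusted p under 0.05, 1 by DESeq2). The medians of this list, which mixes inhibitors and cyclins, were -0.10 and -0.14.

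The fit with the batch number as a block called 4.19% of the tested genes higher for siCDO1A and 4.54% lower. For siCDO1C the shares in that fit were 1.92% higher and 2.15% lower. With siCDO1A, 1 of 6 origin recognition complex genes and 1 of 9 for the restraint of licensing were then higher. Helicase activation had 2 of 13 higher and G2 and M phase 1 of 18, with CDK2 still lower. With siCDO1C, DONSON, E2F1, E2F2 and KIF11 were still higher and AURKA and TOP2A lower. When each library was left out in turn, DONSON, E2F1 and KIF11 were called in all 6 fits with siCDO1A and in 3, 3 and 4 of 6 with siCDO1C. DTL, E2F2 and AURKA were called in 2, 2 and 1 of 6 fits with siCDO1A and in 1, 3 and 2 of 6 with siCDO1C.

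Without siCDO1C replicate 2, against 6.78% of all genes higher and 6.52% lower, the counts with siCDO1C were 0 of 6 for the origin recognition complex, 3 higher of 9 for the restraint of licensing and 4 higher of 13 for helicase activation. They were 4 higher and 1 lower of 8 for the firing kinases, 3 higher and 1 lower of 19 for the E2F, RB and DREAM genes, and 1 higher and 3 lower of 18 for G2 and M phase. MCM8 alone of the 5 MCM relatives was then called. In the list of CDK inhibitors, arrest genes and D-type cyclins 3 of 10 were lower, the cyclin CCND1 among them. The members' 9 of 10 were the largest share of any of these lists in that fit. Since the members and lists were chosen with earlier results of these data known, this order is only a description.

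**Figure D5:**
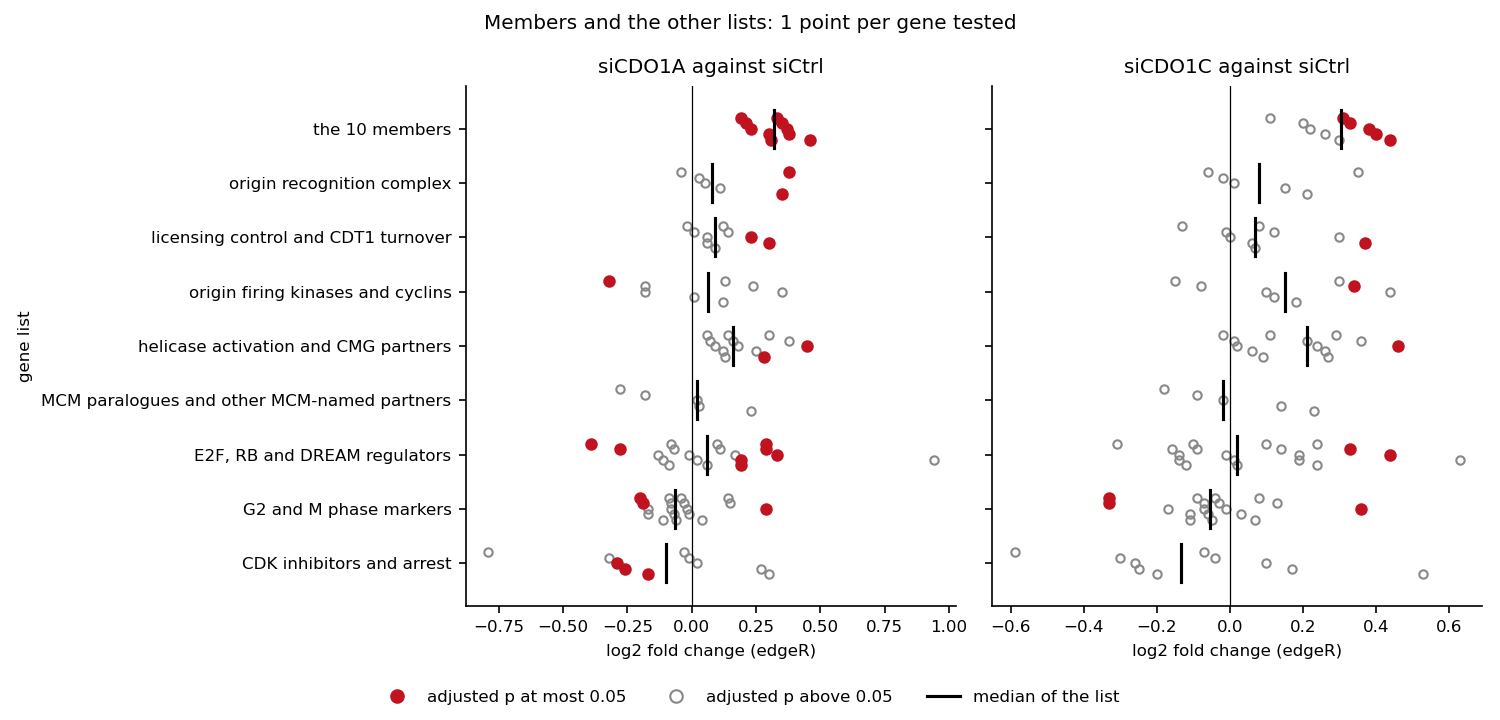
log2 fold change of the 10 members and of the genes of 8 other lists with siCDO1A (left) and siCDO1C (right) against siCtrl (edgeR), 1 point per gene tested, filled in red at an adjusted p of at most 0.05, with a bar at each list's median. The members lie to the right of 0 with medians of 0.32 and 0.31, while the medians of the other lists lie between -0.14 and 0.21.

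CDK2, a cyclin-dependent kinase of origin firing, was the gene of these lists that differed between the siRNAs in the reported edgeR fit. TOP2A was called as well by DESeq2, by edgeR with the block (adjusted p = 0.0453) and by edgeR without siCDO1C replicate 2 (adjusted p = 0.0214), and CDKN2C, a CDK inhibitor, by edgeR without that library (adjusted p = 0.0344). CDK2 had 41.2, 40.1 and 38.9 CPM in siCtrl, 30, 35.3 and 30.8 in siCDO1A and 51.1, 53.7 and 44.3 in siCDO1C. The 3 groups did not overlap, with siCDO1A below and siCDO1C above siCtrl. It fell by 0.32 on the log2 scale with siCDO1A (edgeR, adjusted p = 0.0132) and had 0.30 with siCDO1C (adjusted p = 0.0676). The fall with siCDO1A was not called without siCtrl replicate 1 (edgeR, adjusted p = 0.0612), siCtrl replicate 2 (0.0538) or siCDO1A replicate 1 (0.0709). The direct difference of siCDO1C against siCDO1A was 0.63 ± 0.104 (SE; edgeR, adjusted p = 0.00707). That call was lost without siCDO1A replicate 1 (edgeR, adjusted p = 0.107), siCDO1A replicate 3 (0.0778) or siCDO1C replicate 1 (0.0621), and held without siCDO1C replicate 2 (0.00169).

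The genes whose levels followed the mean of MCM2 to MCM7 most closely over the 9 libraries were sought among 9774 genes of at least 10 CPM, by Pearson's r of log2 CPM with the mean standardized level of the 6 subunits. They were CHPF (r = 0.993), TOP1MT (0.992), GNB1 (0.989), POLR3E (0.989) and NT5DC2 (0.98). All 5 rose with both siRNAs and by more than the members did, from 0.69 (POLR3E) to 1.46 (CHPF) on the log2 scale with siCDO1A and from 0.66 (GNB1) to 1.37 (CHPF) with siCDO1C. Since the siCtrl libraries stood apart from the others, r over the 9 libraries mostly reflects that separation, and it is given as a description. The members' own r ran from 0.844 (CDC6) and 0.886 (MCM2) to 0.964 (MCM4) and 0.976 (MCM5), with each of the 6 subunits part of the mean it was compared with.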

How the data were processed

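RNA of VCaP cells was measured by RNA-seq in 9 libraries, 3 per siRNA group. Per the labels, libraries were directional and made from poly(A) RNA, and the authors deposited raw read counts per gene from featureCounts, paired-end. The submitters' processing notes name CASAVA, HISAT2 2.0.5 and hg38. How the counting treated strand and multiply mapped reads is not given in the sources used here. Another 3 count columns of the table belong to no listed sample and were not used.

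Genes were kept by filterByExpr (minimum count 10), which left 15555 of 58735, and edgeR 4.0.16 in R 4.3.3 (TMM factors, robust quasi-likelihood test) was run on the 6 libraries of each comparison, with a Benjamini-Hochberg adjusted p of at most 0.05 over all genes tested. The precision is that of 12061295 to 16073698 counts per library, for which 3 counts correspond to 0.187 to 0.249 CPM. Alternatives were DESeq2 1.42.0, a fit of all 9 libraries, RLE factors, other filters, a replicate block, each library left out, an adjusted p of 0.01 and, added after the data were seen, removal of GC and length trends (mgcv 1.9.3). The scripts were tested on simulated data. No 2 replicates agreed within sampling noise.

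The labels give a batch equal to the replicate number, so the numbers pair the libraries by the labels. Over 11332 genes, the deviations of same-numbered libraries from their group means correlated at -0.37 to 0.372. The members and lists were chosen with earlier results of these data known. Named are all members and CDO1; genes of the lists past the threshold in the same direction with both siRNAs, at most 4 per list, or in the direct comparison; and the 5 genes most like MCM2 to MCM7. ORC1, ORC6, PCNA, RECQL4, CDC7, E2F3, E2F4, MYBL2, RB1, RBL2, CDKN1A, CDKN1B, CCND1, CCNB1, TOP2A, CDKN2C, MCM8 and the marker genes other than KLK3 fall outside this rule and were named after their values were seen. Some marker genes of the planned lists are not reported here and were left out of the sums.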

Additional observations from a re-analysis of the deposited data

Results flagged for a closer look

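CDK2 stood out because its effect differed between the siRNAs by a direct test: the log2 difference of siCDO1C against siCDO1A was 0.63 (edgeR, adjusted p = 0.00707), with siCDO1A below siCtrl and siCDO1C above it in all 3 libraries each.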

How the results depend on the processing

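The log2 fold changes of the 10 members were positive in 140 of 140 alternative values with siCDO1A and in 140 of 140 with siCDO1C, and their side of the threshold was kept in 122 and 109 of these. No value reversed. The median of the members with siCDO1A was 0.30 with GC and length trends removed and 0.31 with the replicate block added to that, against 0.32. Members called with siCDO1C, and with both siRNAs, numbered 8 with GC and length trends removed, 8 with the replicate block added and 1 at an adjusted p of at most 0.01, against 5. Genes changed with siCDO1A numbered 1369 in a fit of all 9 libraries, 1358 with the replicate block and 1108 at 0.01, against 2310. With siCDO1C they numbered 1320 with GC and length trends removed, 1258 with the block added and 282 at 0.01, against 742. Between the siRNAs they numbered 128 in the fit of all 9 libraries, 153 with no filter, 121 with the block, 158 with GC and length trends removed, 233 with the block added and 24 at 0.01, against 69. The cause of these shifts was not tested.

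With 1 library left out, genes changed ranged from 1292 to 3454 with siCDO1A, from 263 to 2068 with siCDO1C and from 18 to 447 between the siRNAs. Members called ranged from 7 to 9 with siCDO1A, from 1 to 9 with siCDO1C and from 1 to 9 with both, and stayed at 0 between the siRNAs. The medians ranged from 0.29 to 0.32 with siCDO1A, from 0.29 to 0.32 with siCDO1C and from -0.03 to 0.01 between them. Beside the members named with it, the block changed no other member's call. With 3 libraries per group, the 95% confidence intervals of the members' differences between the siRNAs reached at most 0.26 on the log2 scale in either direction, for CDC6.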
